A study of Mus musculus with 10 samples.

Results

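Haematopoietic stem cells hold on to the marrow niche through adhesion proteins, and 9 genes of that machinery are described here: the integrin subunits Itga6, Itga4 and Itgb1, the tetraspanins Cd9, Cd63, Cd81, Cd82 and Cd151, and the immunoglobulin-family receptor Pecam1. They are 9 of 52097 genes in the deposited table and were picked by gene symbol with results of this comparison known. Their values are therefore a description, and no p-value is given for them. The cells came from mouse bone marrow, about 5000 per sample, and the gate took those that lacked lineage markers and CD48 and carried Sca-1, c-Kit and CD150. The 5 knockout samples, titled Dhx16_CKO with genotype KO, carry by that name a conditional knockout of Dhx16, a DEAH-box helicase that acts in pre-mRNA splicing. The 5 control samples, titled Dhx16_fl with genotype WT, carry a floxed gene by their name. The Cre driver, the age of the mice and whether each sample came from its own animal were not given in the sources used here, so p-values measure the spread between these samples, which may be technical.

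Integrins are heterodimers of an alpha and a beta chain that bind matrix proteins and cell surface ligands, and bind more tightly once talin and kindlin engage the beta chain from inside the cell. Tetraspanins are small membrane-spanning proteins that gather integrins and other receptors into membrane microdomains. In the marrow, integrins containing Itgb1 serve homing and retention of stem cells, and several tetraspanins are used to enrich stem cells or have been linked to their quiescence in mice.

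Each library is a column of FPKM values, a level scaled to transcript length and library size. The FPKM values of a library summed to 877099 to 966648 in the knockout and to 770789 to 957520 in the control. Between 12687 and 13722 genes were at 1 FPKM or more in the knockout libraries, against 13938 to 15102 in the control libraries. Dhx16 itself lay between 7.1 and 10.88 FPKM in knockout libraries and between 14.33 and 22.63 FPKM in control libraries (log2 difference -0.81, limma adjusted p = 0.000638), and which exons were deleted was not given in the sources used here. Differences are knockout minus control on the scale of log2(FPKM + 1), from 1 limma fit over the 6913 genes that reached 10 FPKM in 5 or more libraries. In that fit 52.7% of genes passed an adjusted p of 0.05, 21.1% higher and 31.6% lower in the knockout. The authors' deposited table, which tested 23405 genes, had 28.6% at that threshold. Over all tested genes the median difference came to -0.12 for values as deposited, -0.25 for equal library totals, -0.13 for upper-quartile factors and 0.25 for median-of-ratios factors. It came to 0.28 for factors matched to the fold changes the authors deposited, called author-matched factors here. Differences of the 9 genes are for this reason also given relative to that median.

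All 9 genes passed the filter, Itga6 through its control libraries alone. Of the 9, 5 were among the genes called lower and 2 among those called higher, beside the background of 52.7%. Groups of libraries that did not overlap were seen for 4 lower genes and 1 higher gene, where 35.0% of all tested genes had such groups (22.1% lower and 12.9% higher). Nothing is read from these counts, since the choice of genes used the same comparison.

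**Figure D1:**
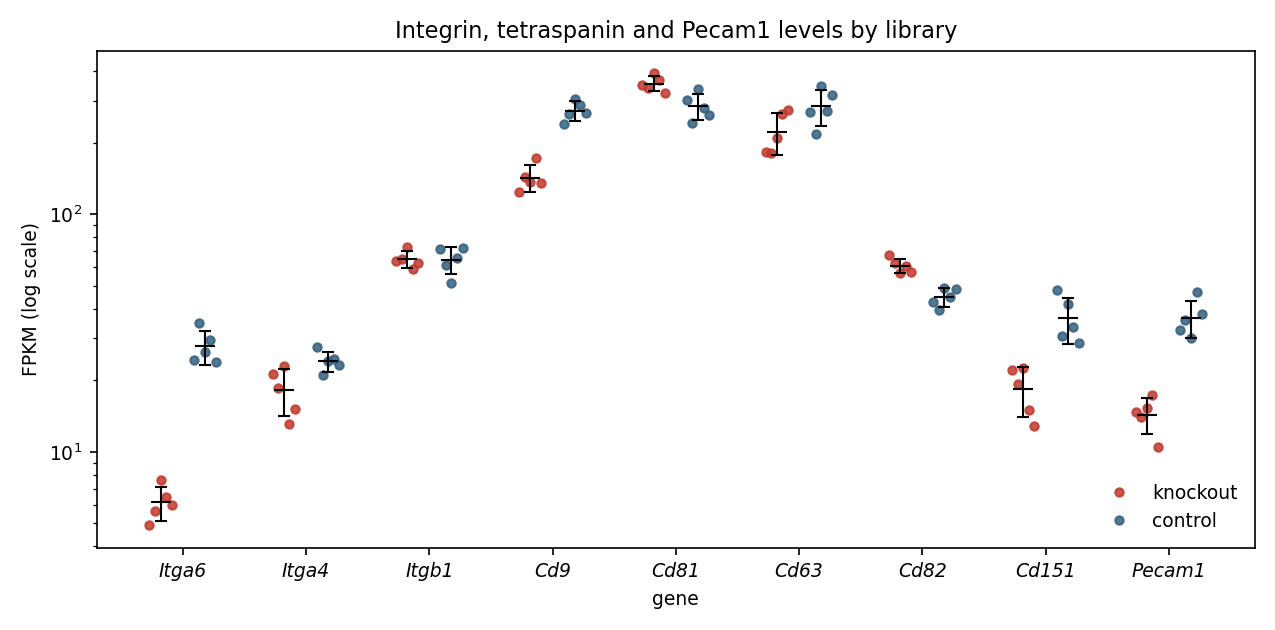
FPKM level (log axis) of the 9 genes in the 5 knockout libraries (red, left of each pair) and the 5 control libraries (blue, right), with points for libraries and black bars for the mean ± SD. Itga6, Cd9, Cd151 and Pecam1 lie lower and Cd82 higher in every knockout library than in any control library, while the groups of Itgb1, Itga4, Cd63 and Cd81 overlap.

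Itga6 encodes the alpha 6 chain, a laminin receptor that pairs with Itgb1 or Itgb4. Its level was 4.91, 5.66, 7.63, 6.47 and 5.95 FPKM in the knockout libraries CKO7, CKO8, CKO9, CKO12 and CKO13, against 24.42, 34.78, 26.28, 29.63 and 23.76 FPKM in the control libraries WT2 to WT6. The highest knockout library was thus well below the lowest control library. The means were 6.12 ± 1.01 FPKM in the knockout and 27.8 ± 4.53 FPKM in the control (SD, n = 5 each), the control level being 4.54 times that of the knockout. The log2 difference was -2.01 with a standard error of 0.14 and a 95% interval of -2.32 to -1.71, and it was -1.90 relative to the median of all tested genes. Only 36 of the 6913 tested genes had a lower difference. A pseudocount of 5 FPKM made it -1.55, and the authors' deposited table gives a log2 fold change of -1.60.

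Itga4 encodes the alpha 4 chain, which with Itgb1 binds VCAM1 and fibronectin and with Itgb7 binds MAdCAM1. It was at 21.18, 18.56, 23.06, 13.14 and 15.11 FPKM in the knockout libraries in the same order, against 27.47, 21.05, 24.00, 24.67 and 23.19 FPKM in the control libraries. The libraries CKO7 and CKO9 reached into the control range, and CKO12 and CKO13 were the lowest. The log2 difference was -0.41 with a standard error of 0.15. It was -0.02 with author-matched factors, -0.03 in the authors' deposited table and -0.15 without the 2 libraries of each group highest in bone matrix markers (CKO12, CKO13, WT2 and WT6). Relative to the median of all tested genes it was -0.29 with the values as deposited.

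Itgb1 encodes the beta 1 chain, the shared partner of both alpha chains. It lay between 58.94 and 72.80 FPKM in the knockout (median 63.60) and between 51.31 and 72.22 FPKM in the control (median 65.53). The groups overlapped, with a log2 difference of 0.01 and a 95% interval of -0.24 to 0.26. With author-matched factors that difference was 0.42, and 0.41 in the authors' deposited table, and without the 2 libraries of each group highest in bone matrix markers 0.18. Relative to the median of all tested genes it stood at 0.13 with the values as deposited and at 0.14 under that scaling.

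A ratio between genes of the same library does not depend on how libraries are scaled. The ratio of Itga6 to Itgb1 was 0.0772, 0.0873, 0.105, 0.110 and 0.0956 in CKO7, CKO8, CKO9, CKO12 and CKO13, against 0.344, 0.567, 0.512, 0.452 and 0.329 in WT2 to WT6. Every knockout library was below every control library. The ratio of Itga4 to Itgb1 was 0.280 ± 0.0470 in the knockout and 0.379 ± 0.0561 in the control (SD, n = 5 each), with overlapping groups. Between the alpha chains, Itga6 to Itga4 was 0.232 to 0.492 in knockout libraries and 0.889 to 1.65 in control libraries. Of the summed FPKM of Itga6, Itga4 and Itgb1, Itga6 made up 5.47% to 8.24% in the knockout and 19.9% to 29.7% in the control, while Itga4 made up 16.7% to 23.6% in the knockout and 18.0% to 23.6% in the control. These ratios are of transcript levels per length and give no number of heterodimers.

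Cd9 and Cd81 are closely related tetraspanins whose differences had opposite signs, so their promoters are shown, with those of Itgb1 and Cd63. The letters are the 250 bases before a start listed by RefSeq for each gene on build GRCm38.p6, written 5′ to 3′ on the strand of the gene. Capitals mark GGGCGG, the GC box bound by Sp and KLF proteins. The Cd63 stretch lies before an internal start, since GENCODE release M21 places that gene from 128900989 to 128912822.
Cd9, chr6:125494761-125495010, minus strand: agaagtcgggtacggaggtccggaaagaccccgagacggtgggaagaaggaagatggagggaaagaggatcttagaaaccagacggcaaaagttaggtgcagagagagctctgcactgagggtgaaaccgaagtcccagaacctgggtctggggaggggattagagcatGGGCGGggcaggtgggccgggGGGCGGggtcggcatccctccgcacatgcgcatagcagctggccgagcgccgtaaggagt
Cd81, chr7:143052500-143052749, plus strand: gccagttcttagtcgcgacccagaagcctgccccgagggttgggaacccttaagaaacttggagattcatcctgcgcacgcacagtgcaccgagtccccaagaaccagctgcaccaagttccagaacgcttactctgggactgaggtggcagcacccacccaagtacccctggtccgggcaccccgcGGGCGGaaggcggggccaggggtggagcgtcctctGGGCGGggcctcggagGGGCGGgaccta
Itgb1, chr8:128685404-128685653, plus strand: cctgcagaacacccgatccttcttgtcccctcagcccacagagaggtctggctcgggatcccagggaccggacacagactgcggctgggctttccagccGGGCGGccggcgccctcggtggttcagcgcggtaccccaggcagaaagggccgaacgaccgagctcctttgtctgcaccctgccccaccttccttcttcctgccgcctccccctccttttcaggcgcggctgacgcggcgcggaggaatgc
Cd63, chr10:128909095-128909344, plus strand: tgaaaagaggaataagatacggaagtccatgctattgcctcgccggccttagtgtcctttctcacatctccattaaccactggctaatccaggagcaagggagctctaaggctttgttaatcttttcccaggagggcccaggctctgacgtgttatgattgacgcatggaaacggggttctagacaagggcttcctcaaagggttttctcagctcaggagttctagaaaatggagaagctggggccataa
The Cd9 stretch holds GGGCGG at 2 places, the Cd81 stretch at 3, the Itgb1 stretch at 1 and the Cd63 stretch at none. Both strands were searched, that is GGGCGG and CCGCCC, and 32.7% of 32851 RefSeq promoter stretches of the same length hold a match. Of the 9 genes 7 had an entry, 11 entries in all, and 6 of these genes had a match in at least 1 entry. The letters CCAAT (either strand, 33.9% of promoters) were found in 1 of the 11 entries, one of Cd82, and GATAA (either strand, 22.6%) in another of Cd82. The GC content was 61.6% for Cd9, 65.6% for Cd81, 68.0% for Itgb1 and 48.8% for Cd63, against a median of 52.4% over all stretches. These are descriptions of the letters, and their relation to the levels was not tested.

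Cd9 marks mouse stem cells and is abundant on platelets. It was at 124.25, 143.47, 136.07, 172.17 and 135.52 FPKM in the knockout libraries, against 238.56, 262.41, 306.17, 288.24 and 265.91 FPKM in the control libraries. No knockout library came near the lowest control library. The means were 142 ± 18.1 FPKM in the knockout and 272 ± 25.9 FPKM in the control (SD, n = 5 each), the control level being 1.91 times that of the knockout. The log2 difference was -0.93 with a standard error of 0.12, and -0.82 relative to the median of all tested genes. It was -0.53 with author-matched factors and -0.54 in the authors' deposited table.

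Cd81, a tetraspanin of B cells and other blood cells that in mouse stem cells has been linked to the return to quiescence, had the highest level of the 9 in every knockout library, while in the control its mean was level with that of Cd63. It was at 347.65, 338.40, 390.78, 367.89 and 324.47 FPKM in the knockout libraries, against 301.00, 242.16, 335.92, 280.06 and 261.61 FPKM in the control libraries. The groups overlapped through WT4 alone, which lay above CKO13. The log2 difference was 0.32 with a standard error of 0.12, and it was 0.18 with equal totals and 0.73 with author-matched factors. Relative to the median of all tested genes it was 0.44.

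Set against each other within a library, Cd9 stood well below Cd81 in the knockout and close to it in the control. The ratio of Cd9 to Cd81 was 0.357, 0.424, 0.348, 0.468 and 0.418 in CKO7, CKO8, CKO9, CKO12 and CKO13, against 0.793, 1.08, 0.911, 1.03 and 1.02 in WT2 to WT6. The gap between the groups, 0.468 against 0.793, was wider than the range within the knockout.

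**Figure D2:**
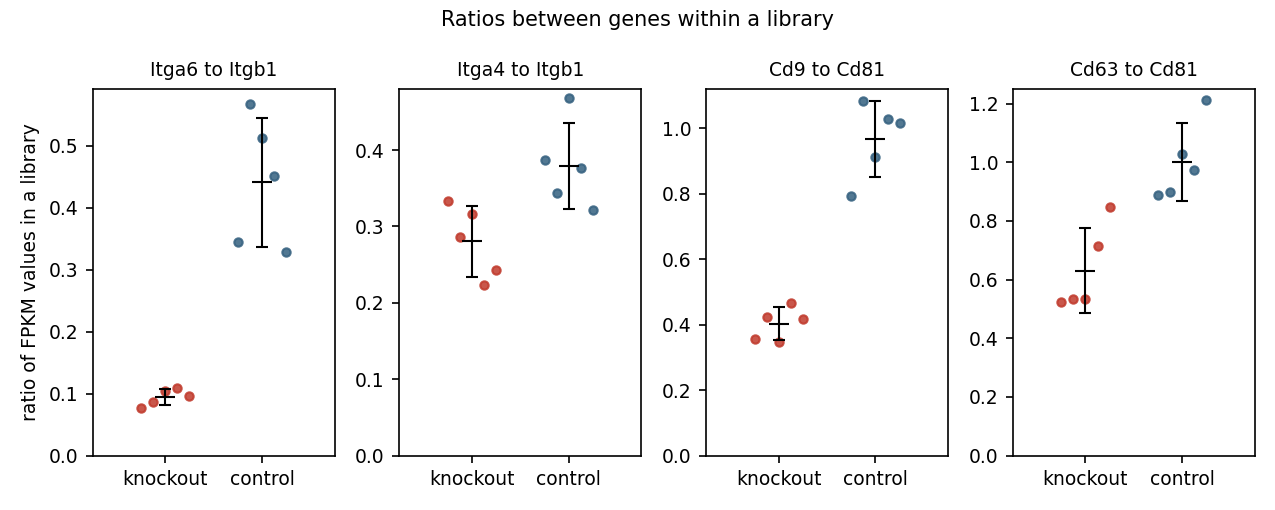
Ratios of FPKM levels between genes within each library (linear axes from 0), knockout left in red and control right in blue, with mean ± SD in black. The ratios of Itga6 to Itgb1, of Cd9 to Cd81 and of Cd63 to Cd81 do not overlap between the groups, while those of Itga4 to Itgb1 do.

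Cd63 sits mainly in late endosomes, lysosomes and secretory granules and binds TIMP1. Its level was 182.05, 180.87, 208.13, 262.97 and 274.60 FPKM in the knockout libraries, against 267.66, 217.84, 345.17, 272.39 and 317.38 FPKM in the control libraries. CKO12 and CKO13 were the highest knockout libraries and lay inside the control range. The log2 difference was -0.36 with a standard error of 0.16. It was 0.05 with author-matched factors and in the authors' deposited table, 0.02 with median-of-ratios factors, and -0.52 without the 2 libraries of each group highest in bone matrix markers. Relative to the median of all tested genes it was -0.25. The ratio of Cd63 to Cd81 was 0.524 to 0.846 in knockout libraries and 0.889 to 1.21 in control libraries.

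Cd82, a tetraspanin linked in mice to stem cell quiescence through its ligand Ackr1, was at 67.10, 62.03, 56.61, 60.22 and 57.15 FPKM in the knockout libraries, against 42.64, 39.32, 48.77, 44.76 and 48.51 FPKM in the control libraries. It was the only member higher in every knockout library than in any control library. The means were 60.6 ± 4.25 FPKM in the knockout and 44.8 ± 4.01 FPKM in the control (SD, n = 5 each), and the log2 difference was 0.43 with a standard error of 0.11. It kept its sign under each scaling, from 0.29 with equal totals to 0.84 with author-matched factors, and was 0.55 relative to the median of all tested genes.

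Cd151 binds laminin-binding integrins directly, among them the dimer with the alpha 6 chain. It was at 22.15, 19.22, 22.55, 14.95 and 12.79 FPKM in the knockout libraries, against 47.75, 30.57, 41.80, 33.60 and 28.65 FPKM in the control libraries. The groups were apart, and CKO12 and CKO13 were again the lowest. The log2 difference was -0.96 with a standard error of 0.18, -0.84 relative to the median of all tested genes, -0.57 with author-matched factors and -0.58 in the authors' deposited table. As Itga6 stood lower still, the ratio of Cd151 to Itga6 was 3.06 ± 0.951 in the knockout and 1.35 ± 0.422 in the control (SD, n = 5 each).

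Pecam1 is neither an integrin nor a tetraspanin but a homophilic adhesion receptor with inhibitory tyrosine motifs, found on endothelium, platelets and stem cells. Its level was 14.68, 13.99, 15.30, 17.30 and 10.46 FPKM in the knockout libraries, against 32.40, 35.79, 30.02, 47.08 and 38.17 FPKM in the control libraries. All knockout libraries were well below the lowest control library. The means were 14.3 ± 2.50 FPKM in the knockout and 36.7 ± 6.59 FPKM in the control (SD, n = 5 each), with a log2 difference of -1.30 and a standard error of 0.15. It was -1.18 relative to the median of all tested genes and -0.97 in the authors' deposited table. Of endothelial genes, Cdh5 was at 0.214 ± 0.203 FPKM in the knockout and 0.460 ± 0.457 FPKM in the control, and Kdr at 0.458 ± 0.274 FPKM in the knockout and 1.57 ± 0.350 FPKM in the control. Of the 9 endothelial markers 2 passed the filter, and both were lower with the values as deposited, where 31.6% of all tested genes were lower. Tie1 was at 28.5 ± 5.85 FPKM in the knockout and 42.6 ± 7.27 FPKM in the control (limma adjusted p = 0.00573), and Emcn at 9.87 ± 2.13 FPKM in the knockout and 13.8 ± 3.28 FPKM in the control (limma adjusted p = 0.0484). Emcn reached the filter in 2 knockout and 4 control libraries, and its call was lost with author-matched factors. The groups of both genes overlapped, and whether Tie1 kept its call with those factors is not reported here. The part of these endothelial genes in the Pecam1 difference was not tested.

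**Figure D3:**
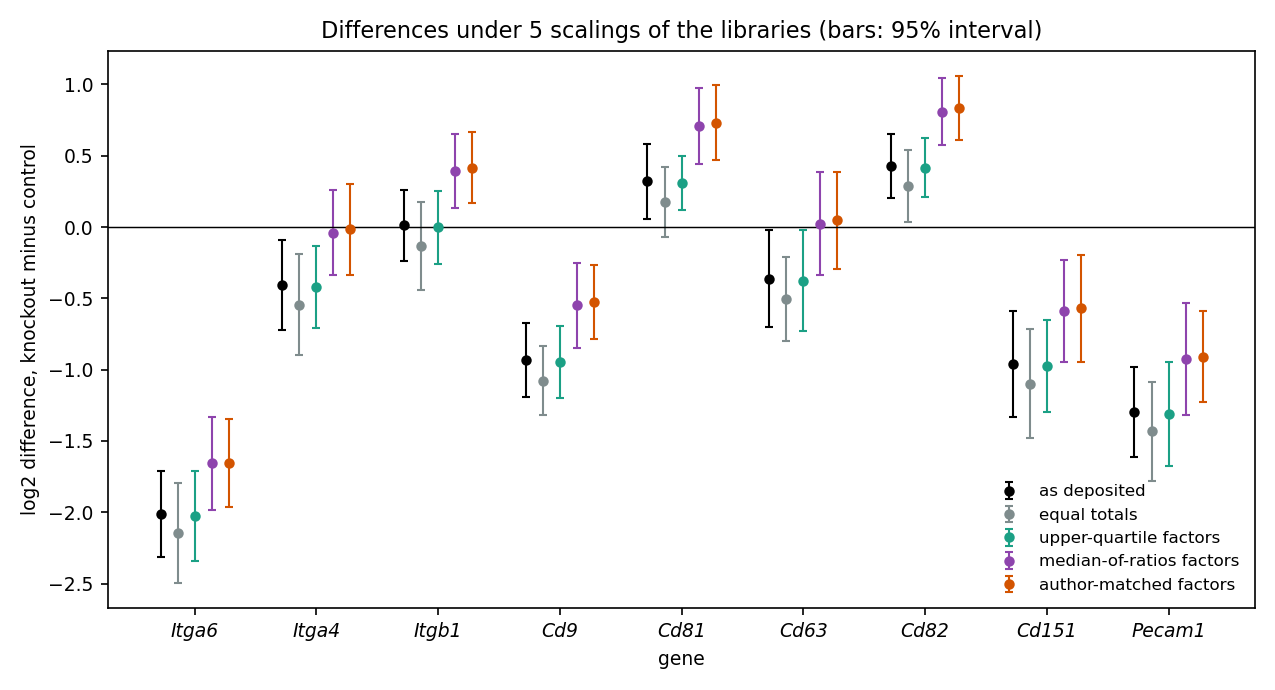
Log2 difference, knockout minus control, of each gene with its 95% interval under 5 scalings of the libraries. The differences of each gene shift together with the scaling, those of Itga6 between -2.14 and -1.65 and those of Cd82 between 0.29 and 0.84, and Itgb1 and Cd63 have differences on both sides of 0. The intervals are a description, since the genes were chosen with this comparison known.

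The order of the genes by level differed between the groups. Cd81, Cd63 and Cd9 led in both. In the knockout they stood at 354, 222 and 142 FPKM with no overlap between neighbours, and in the control at 284, 284 and 272 FPKM with overlapping ranges. Itgb1 and Cd82 came next in both groups, with overlapping ranges in the knockout and none in the control. At the lower end, Itga6 was the lowest gene in the knockout, below every value of its neighbour Pecam1, whereas in the control it overlapped with both Cd151 above and Itga4 below. Within a group the coefficient of variation ran from 7.01% for Cd82 to 23.7% for Cd151 in the knockout and from 8.94% for Cd82 to 22.1% for Cd151 in the control.

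As a measure of likeness, the root mean square difference between centred log2(FPKM + 1) profiles over the 10 libraries was used. It depends on how far each gene itself varied, the root mean square deviation being 1.02 for Itga6, 0.21 for Cd81 and 0.24 for Cd82. A small value therefore does not show shared regulation. Among the 9, Cd81 and Cd82 were the closest pair at 0.15, and Itga6 and Cd82 the farthest at 1.25. Of all tested genes, the closest to Itga6 was F2rl2 at 0.19, with 4.61 FPKM in the knockout and 20.6 FPKM in the control, and the closest to Cd81 was another tetraspanin, Tspan13, at 0.07. The closest genes to Cd9, Cd151 and Pecam1 were Tom1, Ddx17 and Cbx7, at 0.10, 0.11 and 0.13. Those to Itga4, Itgb1, Cd63 and Cd82 were Fam189b, Copg1, Cst3 and Oaz1, at 0.09, 0.07, 0.09 and 0.08.

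The 9 genes are spread over chromosomes 2 (Itga6, Itga4 and Cd82), 6 (Cd9), 7 (Cd81 and Cd151), 8 (Itgb1), 10 (Cd63) and 11 (Pecam1) of build mm10. Itga6 (ENSMUSG00000027111) lies on chromosome 2 from 71745616 to 71858416 on the plus strand, and Cd9 (ENSMUSG00000030342) on chromosome 6 from 125460266 to 125494791 on the minus strand. In GENCODE release M21 the transcript with the most exons has 26 exons for Itga6, 28 for Itga4, 16 each for Itgb1 and Pecam1, and 8 to 10 for the tetraspanins. The strand setting of the counting was not given in the sources used here, so reads of overlapping genes cannot be told apart. Overlaps were few in signal: Cerkl, opposite to Itga4, reached at most 5.47 FPKM in the knockout and 6.89 FPKM in the control, Gm28809, opposite to Cd9, at most 3.02 FPKM in the knockout and 7.39 FPKM in the control, and the others measured stayed below 3 FPKM, while Gm17250, which overlaps Itga6, was not analysed here.

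The partners of these genes were taken as 7 lists, chosen with earlier results of these data known. Their counts and p-values are therefore not independent tests. Of these lists 96 genes were tested. Together 39 were lower and 3 higher in the knockout, with a median of -0.31, against 31.6% lower and 21.1% higher and a median of -0.12 for all tested genes. Those shares of all tested genes are also the background for the limma counts of each list below. At an unadjusted p of 0.05 the counts were 43 and 8. Over all tested genes 4049 of 6913 were under that p. Of the 39, Itgb3, Vcam1 and Hbegf passed the filter through control libraries alone, and their calls give no support. The balance depended on scaling, with 13 lower and 26 higher for author-matched factors. Under each of the 5 scalings 13 genes, Itgb3 and Vcam1 among them, were lower and 2 higher.

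Among the other integrin subunits, 4 of 6 tested genes fell and 0 rose by limma, also at an unadjusted p of 0.05, while the authors' deposited table had 2 lower and 1 higher. The platelet fibrinogen receptor accounts for 2 of them: Itga2b was at 57.3 ± 19.6 FPKM in the knockout and 207 ± 43.1 FPKM in the control (log2 -1.86, limma adjusted p = 1.68e-05), and Itgb3 at 3.69 ± 0.316 FPKM in the knockout and 19.9 ± 6.30 FPKM in the control (log2 -2.10). Both were lower in every knockout library than in any control library, but Itgb3 passed the filter through its control libraries alone, so its call gives no support of its own. Itgb7, the other partner of the alpha 4 chain, was at 15.5 ± 2.97 FPKM in the knockout and 21.2 ± 2.34 FPKM in the control (log2 -0.44, limma adjusted p = 0.0143), but its call was lost without a filter (adjusted p = 0.0524), when the libraries richest in bone matrix markers were left out and with median-of-ratios or author-matched factors, and the authors' deposited table gives a log2 fold change of 0.03. Itgb2l was called with overlapping groups (log2 -1.45, limma adjusted p = 0.0261), and that call was lost without CKO7, CKO9, CKO12 or WT5 (adjusted p = 0.0541, 0.0523, 0.0530 and 0.0573) and with median-of-ratios or author-matched factors. Itga5, the fibronectin receptor chain, was at 16.4 ± 3.33 FPKM in the knockout and 15.6 ± 3.08 FPKM in the control and was not called. Itgb4, the second partner of the alpha 6 chain, was below the filter at 0.256 ± 0.0783 FPKM in the knockout and 0.678 ± 0.129 FPKM in the control.

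Of 8 other tetraspanins tested, 3 fell and 0 rose by limma, or 4 and 1 at an unadjusted p of 0.05, while the authors' deposited table had 0 lower and 3 higher. Tspan32, a blood cell tetraspanin, was at 154 ± 33.9 FPKM in the knockout and 265 ± 64.4 FPKM in the control (log2 -0.78, limma adjusted p = 0.00203), Cd37 at 74.0 ± 10.5 FPKM in the knockout and 101 ± 12.9 FPKM in the control, and Tspan14 at 65.0 ± 7.37 FPKM in the knockout and 86.5 ± 10.8 FPKM in the control. All 3 lost their call with median-of-ratios or author-matched factors, where Tspan14 had log2 differences of -0.02 and 0.00. Without the libraries highest in granulocyte markers the log2 differences were as large, -0.49 for Cd37 and -0.47 for Tspan14, with fewer samples and limma adjusted p = 0.054 and 0.0509. Cd53, Tspan3, Tspan4, Tspan13 and Tspan31 were not called. With a filter of 1 FPKM, under which 49.7% of 13448 genes were called, 13.4% higher and 36.4% lower, 20 tetraspanins were tested, 7 lower and 2 higher. The 2 higher were Tspan8, at 11.2 ± 1.62 FPKM in the knockout and 3.01 ± 1.30 FPKM in the control (log2 1.64, limma adjusted p = 5.94e-05), and Tspan33, at 8.18 ± 1.60 FPKM in the knockout and 2.74 ± 1.15 FPKM in the control (log2 1.33, limma adjusted p = 0.000287). Tspan17, at 2.41 ± 0.930 FPKM in the knockout and 8.27 ± 1.63 FPKM in the control, was among the lower. So were Tspan18 and Tspan7, whose knockout medians of 0.25 and 0.8 FPKM were under that filter, which their control libraries met by themselves. All of these were named after their values were seen.

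Adaptors that switch integrins on or tie them to actin gave 13 lower and 0 higher of 32 tested, where 31.6% of all genes were lower. At an unadjusted p of 0.05 the limma fit had 16 lower and 3 higher, and the authors' deposited table had 4 lower and 6 higher. Rasgrp2, the exchange factor that activates Rap1 in platelets, was at 53.5 ± 9.73 FPKM in the knockout and 155 ± 27.7 FPKM in the control (log2 -1.52, limma adjusted p = 4.95e-06). Rap1b, the GTPase itself, was at 65.3 ± 14.4 FPKM in the knockout and 129 ± 16.0 FPKM in the control (log2 -0.99), the focal adhesion protein zyxin (Zyx) at 64.9 ± 8.84 FPKM in the knockout and 147 ± 8.57 FPKM in the control (log2 -1.18), and the Src-family kinase Lyn at 22.4 ± 3.43 FPKM in the knockout and 48.2 ± 11.2 FPKM in the control (log2 -1.06). These 4 were lower under each of the 5 scalings. The core activators were not called: talin (Tln1) was at 71.4 ± 11.9 FPKM in the knockout and 88.4 ± 10.03 FPKM in the control (limma adjusted p = 0.0580) and kindlin-3 (Fermt3) at 279 ± 51.5 FPKM in the knockout and 348 ± 18.5 FPKM in the control (limma adjusted p = 0.0538).

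Of 6 ligands tested, 4 fell and 0 rose by limma, where 31.6% of all tested genes were lower. The limma counts were the same at an unadjusted p of 0.05, and the authors' deposited table had 2 lower and 0 higher. Thbs1, among the 4, reached the filter in 1 knockout library. Vcam1, the ligand of the alpha 4 beta 1 dimer and also a marker of marrow macrophages, was at 6.40 ± 2.30 FPKM in the knockout and 40.9 ± 12.7 FPKM in the control (log2 -2.49). It passed the filter through its control libraries alone. Thbs1 was at 8.18 ± 5.95 FPKM in the knockout and 34.8 ± 21.4 FPKM in the control with overlapping groups, and its call was lost without the 2 libraries of each group highest in granulocyte markers, CKO8, CKO12, WT3 and WT5 (log2 -1.59 with a standard error of 0.95, against -1.93 and 0.54 in all libraries, limma adjusted p = 0.278). Emilin1, a ligand of the alpha 4 beta 1 dimer, and Icam1 fell by 0.52 and 0.56 on the log2 scale, calls that were lost with median-of-ratios or author-matched factors and when the libraries richest in bone matrix markers were left out (log2 -0.28 and -0.42). Ackr1, the Cd82 ligand, was below the filter at 5.83 ± 1.81 FPKM in the knockout and 5.46 ± 2.14 FPKM in the control, and no laminin chain passed it.

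Lateral partners of tetraspanins had 1 lower and 2 higher of 14 tested and a median of -0.00, while the authors' deposited table had 1 lower and 5 higher and author-matched factors gave 0 and 7 by limma. At an unadjusted p of 0.05 the values as deposited gave 1 lower and 3 higher. Bsg, the chaperone of lactate transporters that carries a blood group antigen in humans, was at 470 ± 27.2 FPKM in the knockout and 263 ± 37.4 FPKM in the control (log2 0.84, limma adjusted p = 8.1e-05), higher under every scaling. Hbegf, a growth factor precursor that associates with Cd9, was the gene called lower, at 7.46 ± 1.12 FPKM in the knockout and 13.0 ± 2.35 FPKM in the control. It passed the filter through its control libraries alone, and its call was lost with author-matched factors (limma adjusted p = 0.0619). Adam10 and Adam17, the sheddases that tetraspanins guide, Cd44 and Cd47 were not called.

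Of 12 other adhesion receptors tested, 6 fell and 0 rose by limma, also at an unadjusted p of 0.05, while the authors' deposited table had 1 lower and 2 higher. Cd84, a SLAM-family receptor, was at 20.0 ± 3.32 FPKM in the knockout and 50.1 ± 9.51 FPKM in the control (log2 -1.27, limma adjusted p = 1.23e-05) and was the only one lower under every scaling. Esam, F11r and Selplg fell by 0.67, 0.63 and 0.56 on the log2 scale and lost their calls with median-of-ratios or author-matched factors, and Esam and F11r also without the libraries highest in bone matrix markers, where their log2 differences were -0.68 and -0.51 with fewer samples (limma adjusted p = 0.0685 for F11r). Cd34, Cd164 and Selp were not called. Of 18 genes of late endosome and exosome sorting, 8 fell and 1 rose, while the authors' deposited table had 1 lower and 6 higher and author-matched factors gave 3 and 7. Rab27b was at 11.5 ± 1.56 FPKM in the knockout and 28.2 ± 3.10 FPKM in the control (log2 -1.23, limma adjusted p = 5.23e-06), Flot1 at 68.8 ± 18.6 FPKM in the knockout and 121 ± 10.3 FPKM in the control, Vps37b at 18.2 ± 2.49 FPKM in the knockout and 34.0 ± 6.13 FPKM in the control, and Hgs, higher, at 35.9 ± 4.04 FPKM in the knockout and 25.1 ± 2.94 FPKM in the control. The call of Hgs was lost with equal totals (limma adjusted p = 0.0536), and Vps37b and Flot1 were not called in the authors' deposited table (adjusted p = 0.0542 and 0.0773). Lamp2 fell by 0.50 on the log2 scale, with a log2 fold change of 0.02 in the authors' deposited table, and Sdcbp and Pdcd6ip were not called.

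**Figure D4:**
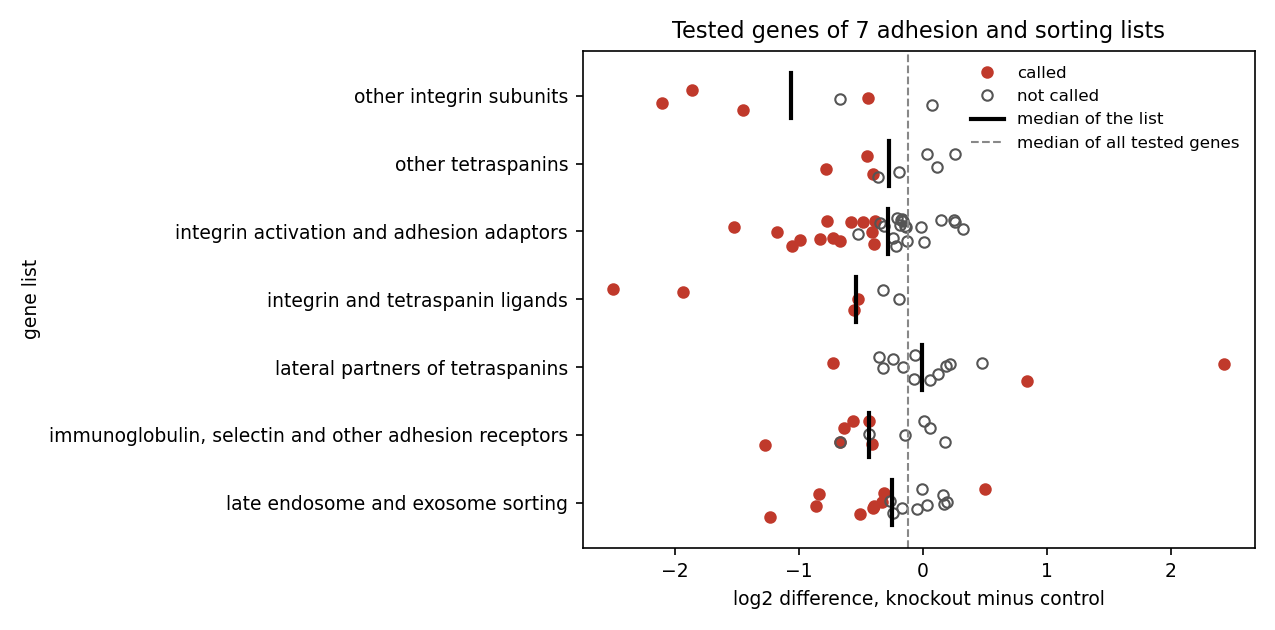
Log2 difference, knockout minus control, of each tested gene in 7 lists of partners (rows), filled red where called at an adjusted p under 0.05 and open where not, with the median of each list as a black bar and the median of all 6913 tested genes, -0.12, as a dashed line. The integrin subunits have the lowest median, -1.06, and the lateral partners of tetraspanins the highest, -0.00. The former rests on 6 tested genes, of which Itgb3 passed the filter through control libraries alone and Itgb2l reached it in 1 knockout library.

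Several of these genes are also used as markers of cell types, so the marker lists are not independent of the lists above. The marker lists too were chosen with earlier results of these data known, so their counts are not independent tests. Of 14 megakaryocyte and platelet markers tested, 13 were lower in the knockout, where 31.6% of all tested genes were lower. The summed level of the list was 796 to 1495 FPKM in knockout libraries against 1713 to 2518 FPKM in control libraries. Clec1b, Itgb3 and P2ry1 passed the filter through control libraries alone, and their calls give no support. The megakaryocyte list shares Itga2b, Itgb3, Selp and Rab27b with the lists above. Other marker lists share genes with them too, such as Esam in the stem cell list and Emcn in the endothelial list. All 6 tested macrophage markers, Vcam1 among them, were lower, with sums of 31.9 to 60.1 FPKM in the knockout against 206 to 414 FPKM in the control. Of these, C1qa, C1qc, Fcna and Vcam1 passed the filter through control libraries alone, and their calls give no support. All 12 tested stem cell markers were lower, with sums of 516 to 828 FPKM in the knockout against 1103 to 1485 FPKM in the control. All 12 erythroid markers were higher, where 21.1% of all tested genes were higher. Their sums were 964 to 1482 FPKM in the knockout against 186 to 546 FPKM in the control. These counts are for the values as deposited, and the stem cell marker Esam lost its call with median-of-ratios or author-matched factors. Procr, Meis1 and Pf4 had smaller log2 differences as deposited, -0.63, -0.52 and -0.65, against -0.67 for Esam. Calls of the marker genes outside the partner lists under those factors are not reported here. The part of these cell types in the differences of the 9 genes was not tested. In bulk samples fewer cells of a type and less RNA per cell cannot be told apart.

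Bone matrix genes summed to 4549 to 47778 FPKM in the knockout and 3180 to 65870 FPKM in the control, and granulocyte genes to 8749 to 41035 FPKM in the knockout and 9936 to 74628 FPKM in the control, so the groups overlapped. CKO12 and CKO13, low in Itga4 and Cd151 and high in Cd63, had the highest bone matrix sums of the knockout, 28258 and 47778 FPKM, whose part in those values was not tested. Endothelial markers summed to 39.3 to 54.9 FPKM in the knockout and 58.6 to 78.5 FPKM in the control, B lymphocyte markers to 20.4 to 34.2 FPKM in the knockout and 33.0 to 58.3 FPKM in the control, and T and NK lymphocyte markers to 2.08 to 4.75 FPKM in the knockout and 5.02 to 8.81 FPKM in the control. No marker of any list was at 0 in all 10 libraries. Of the sort markers, Ly6a lay between 162 and 259 FPKM in the knockout and between 126 and 317 FPKM in the control, and Kit between 78.3 and 158 FPKM in the knockout and between 124 and 182 FPKM in the control. Slamf1, which encodes CD150, was lower, at 10.9 ± 2.20 FPKM in the knockout and 21.5 ± 4.65 FPKM in the control, and Cd48, against which the cells were gated, was at 6.86 ± 1.09 FPKM in the knockout and 10.3 ± 3.99 FPKM in the control.

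**Figure D5:**
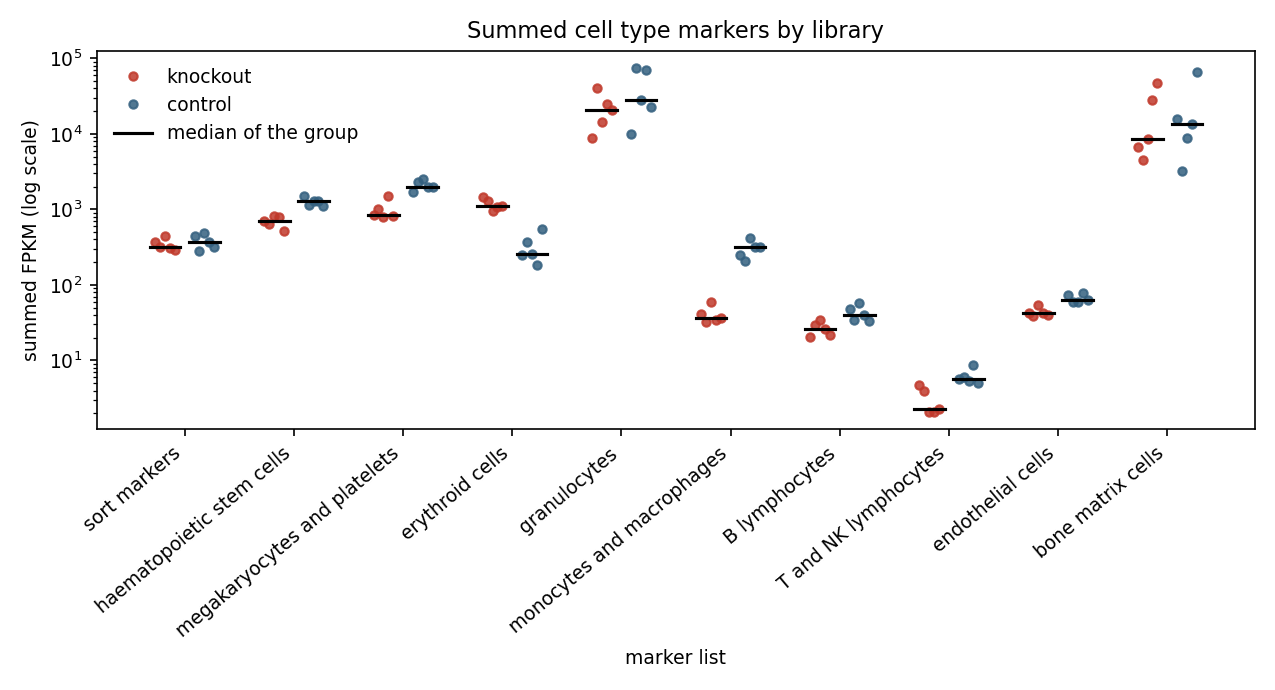
Summed FPKM level (log axis) of 10 lists of cell type markers in each library, knockout left in red and control right in blue, with the group median as a bar. The sums of stem cell, megakaryocyte and macrophage markers are lower and those of erythroid markers higher in every knockout library than in any control library, while bone matrix and granulocyte sums spread widely in both groups.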

How the data were processed

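Bulk RNA was measured in 10 samples of sorted mouse haematopoietic stem cells, 5 knockout and 5 control, with a Smart-Seq V4 kit per the labels' protocols. Bowtie 0.12.9, Cufflinks 2.1.1, HTSeq and mm10 are listed, without roles, per the submitters' processing notes. The deposited library columns name no unit and were taken as FPKM from their sums and decimals. Their mean normalized count (a signal), log2 fold change and its error, test statistic (a score), p-value and adjusted p-value were computed by the authors and have the layout of DESeq2 output, per the file headers. Of these, the log2 fold changes (knockout over control) and adjusted p-values were used for comparison only. Depth per library is unknown, so no interval from counting is given. The columns carried other numbers than the sample titles and were assigned to a group only.

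From the FPKM values, differences were computed with limma 3.58.1 in R 4.3.3 on log2(FPKM + 1), with trend and robust options. The fit took the 6913 genes that reached 10 FPKM in 5 or more libraries, with Benjamini-Hochberg adjustment over all of them. It was checked on simulated data with few changed genes, as many higher as lower, and no shift in scaling. That check does not cover the large share of genes called here or the choice of scaling. All 52097 identifiers matched GENCODE M21. The 9 genes and the lists of partners and markers were chosen with earlier results of these data known. Of each partner list, up to 4 called genes per direction with the largest difference are named, all where 5 or fewer were called, and for each of the 9 genes the tested gene with the closest profile. Alternatives were other pseudocounts, filters, scalings, limma options, library weights, each library left out and, added after seeing the data, 2 libraries of each group left out, those with the most bone matrix or granulocyte marker signal. The partner list genes Cd99 and Vps28 were not analysed here, and 1 called partner is counted but not reported here by name.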

Additional observations from a re-analysis of the deposited data

Results flagged for a closer look

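In 5 of the 74 groups of 5 libraries examined (the 9 genes, Dhx16 and the named partners), 1 library lay far from the rest by Dixon's test at the 95% level, where chance gives about 1 in 20. None of the 9 genes was among them. Itgb3 was at 3.14 FPKM in CKO7, with the other knockout libraries at 3.74 to 3.92 FPKM. Thbs1 was at 18.49 FPKM in CKO13, with the other knockout libraries at 3.12 to 6.69 FPKM. Icam1 was at 26.33 FPKM in CKO9, with the other knockout libraries at 20.04 to 21.45 FPKM. Bsg was at 516.7 FPKM in CKO7, with the other knockout libraries at 445.95 to 465.64 FPKM. Itgb7 was at 25.26 FPKM in WT2, with the other control libraries at 19.45 to 21.02 FPKM.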

How the results depend on the processing

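Scaling of the libraries moved most values. With median-of-ratios factors 3053 genes were called higher and 816 lower, among partners 23 higher and 14 lower, and author-matched factors gave 3055 and 769, among partners 26 and 13, where the values as deposited gave 1460 and 2182, among partners 3 and 39. The authors' deposited table called 4001 genes higher, and of the tested partners 23 higher and 11 lower. Of all calls, 40.1% were higher as deposited, 28.3% for equal totals, 39.6% for upper-quartile factors, 78.9% for median-of-ratios factors and 79.9% for author-matched factors. Upper-quartile factors gave 7 and library quality weights 9 partners called higher. With a filter of 1 FPKM, 4890 genes were called lower, and 5 partners higher and 60 lower. With no filter 4523 genes were called lower and 5 partners higher. Leaving out the 2 libraries of each group highest in bone matrix markers, with fewer samples, gave 1373 genes and 20 partners called lower, and doing so for granulocyte markers gave 846 genes called higher and 24 partners called lower. Leaving out single libraries gave 3 to 7 partners called higher, with 6 without WT4 and 7 without CKO13. Tspan14 changed sign to 0.0011 with author-matched factors, and Tspan14, Itgb7 and Lamp2 to 0.001, 0.033 and 0.0249 in the authors' deposited table, with adjusted p above 0.05. Of 27 named partners, 10 kept direction and call under all 23 alternatives run. Itgb3 and Vcam1 are among the 10, but they passed the filter through control libraries alone, so their calls give no support. Apart from the scalings, the authors' table, a pseudocount of 5 FPKM for Itga6 and the bone matrix alternative for Itga4 and Itgb1, the differences of the 9 genes moved by less than the spread between libraries. No paired analysis was possible because the columns of the table do not carry the replicate numbers of the sample titles. The cause of each such change was not tested, and the unknown depth limits what low values can show.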

Other observations

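With a filter of 1 FPKM in place of 10, some adhesion genes that the stricter filter had left out were called, and they were named after their values were seen. Cd226, an adhesion receptor of platelets and T and NK lymphocytes, was at 0.984 ± 0.900 FPKM in the knockout and 16.0 ± 8.05 FPKM in the control (SD, n = 5 each; log2 -3.04), with groups that did not overlap. Itgav, the alpha chain of vitronectin receptors, was at 5.77 ± 0.580 FPKM in the knockout and 9.84 ± 0.978 FPKM in the control (log2 -0.68, limma adjusted p = 0.000567), and its partner Itgb5 at 0.816 ± 0.191 FPKM in the knockout and 3.21 ± 0.705 FPKM in the control (log2 -1.21). No p is given for Cd226 and Itgb5, whose knockout medians of 0.65 and 0.8 FPKM were under the filter, which their control libraries met by themselves. Cd38, which can bind Pecam1, was at 2.09 ± 0.578 FPKM in the knockout and 4.78 ± 0.537 FPKM in the control (log2 -0.92, limma adjusted p = 0.000439). Jam3 was at 5.39 ± 1.18 FPKM in the knockout and 9.39 ± 1.92 FPKM in the control (log2 -0.70, limma adjusted p = 0.00470). Under that filter 8 of 12 other integrin subunits tested were lower and 0 higher, with a median of -0.85, beside 36.4% of all genes called lower and a median of -0.26. Among the lower were Itgad, Itgb5 and Itga2, with knockout medians of 0.03, 0.8 and 0.98 FPKM. These are under the filter, which the control libraries met by themselves, so nothing is read from that count.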
